A study of Mus musculus with 11 samples.

Results

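The genes of glucose uptake and glycolysis were followed through 10 listed members in whole distal tibia of mice with ablation of BM adipocytes (BMAds) and of their controls. The members were *Slc2a1*, *Hk1*, *Hk2*, *Gpi1*, *Pfkl*, *Aldoa*, *Tpi1*, *Pgk1*, *Pkm* and *Ldha*, chosen by gene symbol. Of the 10 symbols, 9 were found among the 22600 genes of the merged count table. *Tpi1* has no row in the merged table used here and was read by its gene identifier from the counts deposited for each library. *Aldoa* carries its symbol on 2 rows, and the second, a gene model beside the first with 1 to 26 counts per library, was left out of the counts of members. All 9 members of the merged table passed the filter on low counts.

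Cells take up glucose through carriers of the Slc2a family and trap it by phosphorylation in the hexokinase step. The 6-carbon sugar is then rearranged, phosphorylated again by phosphofructokinase and split by aldolase, and the later steps yield ATP, NADH and pyruvate, which lactate dehydrogenase turns into lactate. In bone marrow this pathway feeds red cells, which have no mitochondria when mature, as well as granulocytes, and it is a main energy route of osteoblasts, while the insulin-responsive carrier *Slc2a4* belongs to fat and striated muscle.

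RNA from 4 Control mice (genotype label BMAd-WT) and 7 BMAd-DTA mice was sequenced, with 1 library per mouse. All mice were of strain C57BL6/SJL, 24 weeks of age by the labels, and fed ad libitum. Both groups carried Osterix-FLPo and FAC, a FLPo-dependent Cre placed at *Adipoq*, an arrangement known to lower circulating adiponectin, so that this feature belongs to the controls as well. BMAd-DTA mice carried in addition ROSA-DTA, a diphtheria toxin A gene behind a removable stop, which kills cells in which Cre was active. The model is limited in that Cre also reaches some marrow stromal cells that express *Adipoq*. The comparison asks how the loss of BMAds bears on the RNA of the bone as a whole. Since the tissue is a mixture of cells, fewer cells of a type and less RNA per cell cannot be told apart.

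Each library held between 16969529 and 18637663 counts on genes. Adipocyte markers were present in both groups, and their summed level was 1761 to 3018 CPM (counts scaled to the library size) in Control and 780 to 2004 CPM in BMAd-DTA libraries. All 15 tested adipocyte markers were lower in BMAd-DTA mice. By edgeR, 11 had an unadjusted p under 0.05 and 1 passed the test, and DESeq2 called 4 lower. Of all tested genes, 8.53% were lower at an unadjusted p under 0.05 in edgeR, and DESeq2 called 2.5% lower. Some of the other marker lists differed in sum as well. Osteoblast and osteocyte markers summed to 3075 to 13196 CPM in Control and 15617 to 36483 CPM in BMAd-DTA libraries, and proliferation markers to 3727 to 5115 CPM and 2767 to 3633 CPM, without overlap in either case. Chondrocyte and tendon markers summed to 241 to 402 CPM and 532 to 707 CPM, also without overlap. How often sums over other genes would not overlap was not computed. The sums of neutrophil and of endothelium markers overlapped between the groups. Skeletal muscle markers ranged from 36.6 to 1702 CPM in Control and from 35.9 to 1283 CPM in BMAd-DTA libraries, with the highest sums in Control 3 and BMAd-DTA 6, which therefore stand apart in genes that muscle expresses.

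Short stretches of the members' promoters are shown first, because several of these genes are known targets of hypoxia-inducible factors, whose binding sites often hold the letters ACGTG. Other forms of the site were not searched. This motif was searched on both strands, where it reads CACGT on the other strand and overlaps itself in CACGTG, in RefSeq windows (GRCm38.p6) from 250 bases before to 50 bases after each start. ACGTG occurred in the windows of 7 of the 10 members, against 21.8% of the 27025 genes with a window, and in none of the windows of *Gpi1*, *Pfkl* and *Tpi1*. By window, it occurred in 8 of the 15 windows of the members, against 19.6% of all 32851 windows. For *Hk1* it lay in the window from 62340372 to 62340671 and not in that from 62379859 to 62380158. The match nearest to the start is printed for each of the 7 genes, 5′ to 3′ on the strand of the gene, with that match in capitals. The lower-case letters of the *Hk1* stretch hold a further match.
Slc2a1, chr4:119108699-119108723, plus strand: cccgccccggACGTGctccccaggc
Hk1, chr10:62340400-62340424, minus strand: cgcgctccttACGTGgggaacgtgc
Hk2, chr6:82774492-82774516, minus strand: tgagcacatcCACGTcactgtccgg
Aldoa, chr7:126799366-126799390, minus strand: tggctcgagtCACGTcctagcgggg
Pgk1, chrX:106186959-106186983, plus strand: atggaagtagCACGTctcactagtc
Pkm, chr9:59657225-59657249, plus strand: gcattctagtCACGTccgcggactc
Ldha, chr7:46845760-46845784, plus strand: tgggttcccgCACGTccgctgggct
A match is a description of these letters and not a bound site.

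The genes of the pathway differed widely in level. Per kilobase of merged exons, the mean level over all 11 libraries was highest for *Aldoa* at 220 CPM per kb, followed by *Gpi1* at 142, *Pkm* at 122 and *Ldha* at 114 CPM per kb. *Tpi1* stood at 62.1, *Pgk1* at 45.6 and *Hk1* at 30.2 CPM per kb. The lowest were *Slc2a1* at 8.72, *Pfkl* at 8.64 and *Hk2* at 7.05 CPM per kb. Within a library, *Aldoa* lay above *Gpi1*, *Ldha* above *Tpi1*, *Tpi1* above *Pgk1*, *Pgk1* above *Hk1* and *Hk1* above *Slc2a1* in 11 of 11 cases on this scale. *Gpi1* lay above *Pkm* in 10, *Pkm* above *Ldha* in 9 and *Pfkl* above *Hk2* in 10 of the 11 libraries. *Slc2a1* and *Pfkl* had no steady order, with *Slc2a1* above *Pfkl* in 4 of 11 libraries. The ranges over libraries overlapped for these last 4 pairs and for *Pgk1* and *Hk1*.

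The length used for this scale matters. With the length of the principal transcript in place of all annotated exons, a choice made after seeing the data, *Hk1* stood above *Pgk1*, at 66.8 against 56.0 CPM per kb, and *Pfkl* above *Slc2a1*, at 15.5 against 9.38 CPM per kb, each in 11 of 11 libraries. *Aldoa* remained the highest member at 424 CPM per kb and *Hk2* the lowest at 7.64 CPM per kb.

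**Figure D1:**
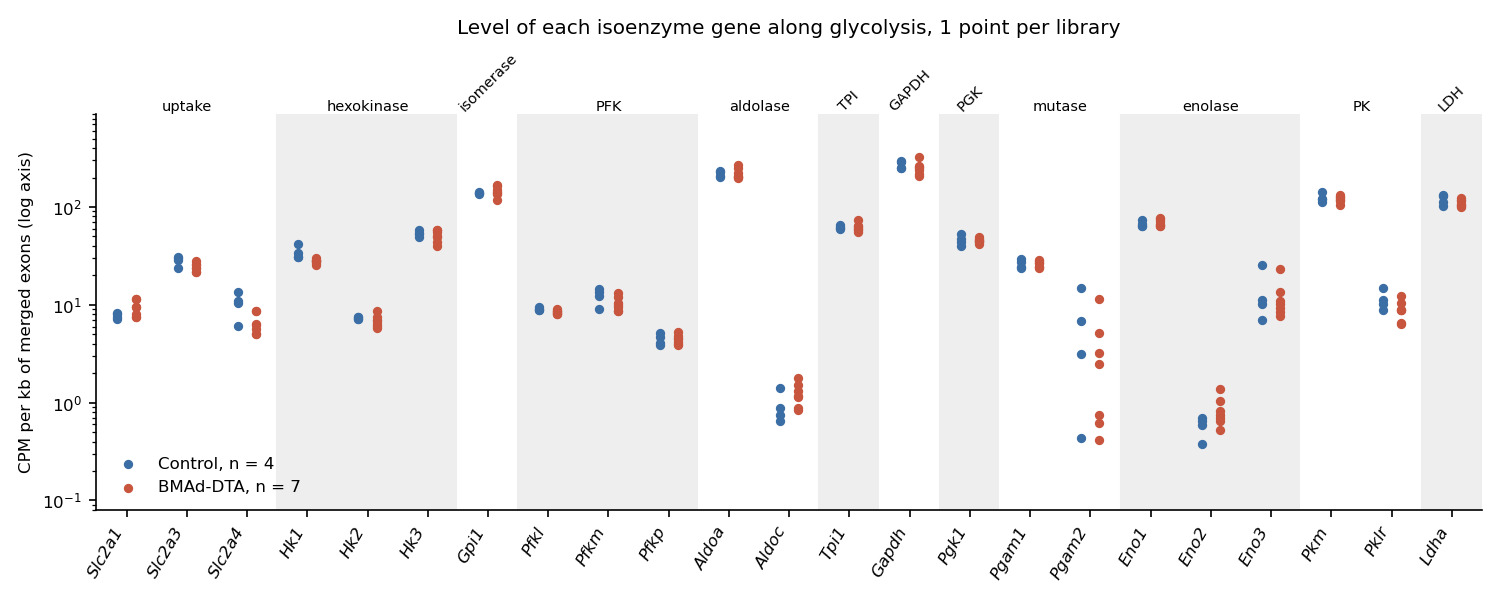
Level of each isoenzyme gene along glycolysis, in CPM per kb of merged exons on a log axis, 1 point per library, Control in blue (n = 4) and BMAd-DTA in red (n = 7). *Gapdh*, *Aldoa* and *Gpi1* lie highest, and the points of the 2 groups lie close together for most genes.

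No member passed the test between genotypes. By edgeR (quasi-likelihood, Benjamini-Hochberg adjustment across the 16496 tested genes), 0 of the 9 tested members had an adjusted p under 0.05, where 0.0788% of all tested genes did, 0.0727% higher and 0.00606% lower in BMAd-DTA mice. At an unadjusted p under 0.05, 1 of the 9 members (*Hk1*, 11.1%) passed, against 16.4% of all tested genes, 7.89% higher and 8.53% lower. DESeq2 called 1 member lower, again *Hk1*, against 5.11% of the genes tested in edgeR, 2.61% higher and 2.5% lower. The groups did not overlap for 1 member, *Hk1*, against 2.81% of all tested genes, of which 1.78% had every BMAd-DTA library above and 1.04% every one below the Control libraries. Of the 9 members 3 had a fold change above and 6 below 0, against 50.4% and 49.6% of all tested genes. The members had a median log2 fold change of -0.033, and that of all tested genes was 0.0018.

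**Figure D2:**
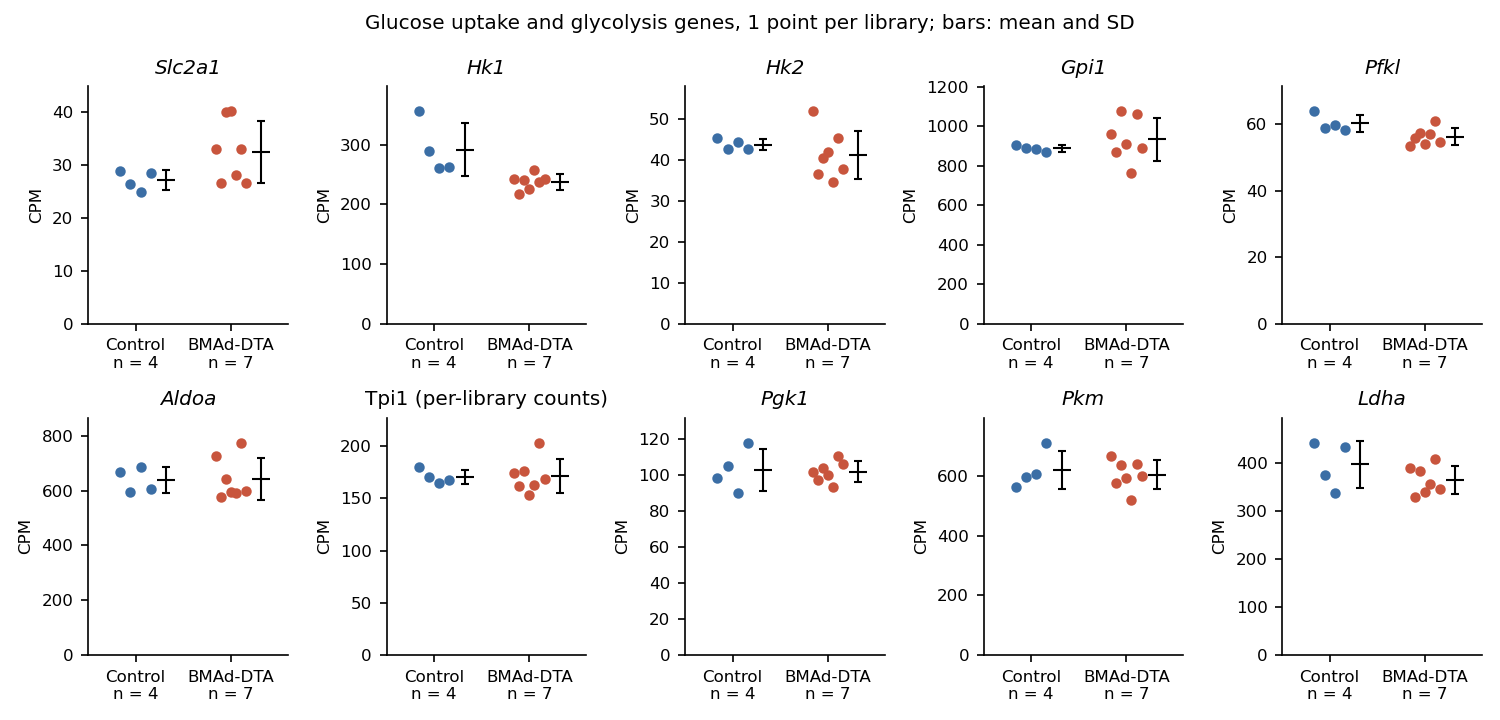
CPM of the 10 members in each library, with an axis from 0, points for Control (blue, n = 4) and BMAd-DTA (red, n = 7), and bars for the mean and SD. For *Hk1*, all 7 BMAd-DTA points lie below the 4 Control points, and for the other 9 genes the groups overlap.

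*Slc2a1* encodes the widely expressed carrier that red cells and many other cells use for basal glucose uptake (chromosome 4, 119108711 to 119137983 of GRCm38, plus strand). It was at 28.9, 26.4, 24.8 and 28.5 CPM in the Control libraries, and between 26.5 and 40.2 CPM with a median of 33.1 in the BMAd-DTA libraries. The groups overlapped, with 4 of 7 BMAd-DTA libraries above every Control and the other 3 inside the Control range. The spread was wider in BMAd-DTA mice, at 32.5 ± 5.85 CPM (SD, n = 7) against 27.1 ± 1.91 CPM (SD, n = 4). The log2 fold change was 0.26 (SE 0.13, 95% interval -0.014 to 0.53, edgeR with Benjamini-Hochberg adjustment, adjusted p = 0.326), which is the highest value among the members. It remained above 0 with every library left out in turn, at 0.20 to 0.30.

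The hexokinases phosphorylate glucose as it enters the cell. *Hk1*, the housekeeping form and the one of red cells (chromosome 10, 62268855 to 62379908, minus strand), was at 356, 289, 260 and 262 CPM in the Control libraries. In the BMAd-DTA libraries it was between 217 and 258 CPM with a median of 241. Every BMAd-DTA library lay below every Control library, although the gap between the highest of one group and the lowest of the other was small.

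The mean *Hk1* level was 292 ± 44.7 CPM (SD, n = 4) in Control and 238 ± 12.9 CPM (SD, n = 7) in BMAd-DTA mice. This gave a log2 fold change of -0.30 (SE 0.084, 95% interval -0.48 to -0.11, edgeR with Benjamini-Hochberg adjustment, adjusted p = 0.112), a difference of -18.6% with an interval from -28.2% to -7.66%. DESeq2 gave an adjusted p of 0.0293, so the call depends on the tool. It also leans on 1 library. Without Control 1, the log2 fold change was -0.19 (adjusted p = 0.367, edgeR with Benjamini-Hochberg adjustment).

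Control 1, the library highest in *Hk1*, also had the highest sum of proliferation markers, at 5115 CPM, and the lowest sum of osteoblast and osteocyte markers, at 3075 CPM. Of 11 tested erythroid markers, 10 were lower in BMAd-DTA mice, 6 of them at an unadjusted p under 0.05 and 0 at an adjusted p under 0.05 in edgeR, with 4 called lower by DESeq2 and a median of -0.43 on the log2 scale. Of all tested genes, 8.53% were lower at an unadjusted p under 0.05 in edgeR, and DESeq2 called 2.5% lower. The summed level of the erythroid markers, which is mostly globin, overlapped at 15358 to 34521 CPM in Control and 20493 to 36703 CPM in BMAd-DTA libraries. With a score of the erythroid markers in the model, an alternative added after seeing the data, the log2 fold change of *Hk1* was -0.22 (adjusted p = 0.291, edgeR with Benjamini-Hochberg adjustment). The part of these cells in the level of *Hk1* was not tested further.

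*Hk2*, the inducible form that is prominent in muscle and fat (chromosome 6, 82725025 to 82774454, minus strand), was at 45.2, 42.6, 44.3 and 42.6 CPM in the Control libraries. It was between 34.5 and 51.8 CPM with a median of 40.5 in the BMAd-DTA libraries. The BMAd-DTA values enclosed the narrow Control range, with 2 libraries above and 5 below it. Its log2 fold change was -0.085 (SE 0.099, 95% interval -0.30 to 0.13, edgeR with Benjamini-Hochberg adjustment, adjusted p = 0.727).

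*Gpi1*, which converts glucose phosphate to fructose phosphate (chromosome 7, 34201330 to 34230336, minus strand), had the highest counts of the members, up to 18969 in a library. It was at 908, 890, 888 and 869 CPM in the Control libraries, and between 766 and 1076 CPM with a median of 910 in the BMAd-DTA libraries. The Control libraries were almost level, and BMAd-DTA libraries lay on both sides of them. Its log2 fold change was 0.072 (SE 0.090, 95% interval -0.12 to 0.27, edgeR with Benjamini-Hochberg adjustment, adjusted p = 0.752).

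*Pfkl* encodes the liver-type subunit of phosphofructokinase, the main control point of the pathway (chromosome 10, 77986947 to 78010083, minus strand). It was at 63.9, 58.9, 59.8 and 58.4 CPM in the Control libraries, and between 53.6 and 61.0 CPM with a median of 55.8 in the BMAd-DTA libraries. The groups overlapped through 1 BMAd-DTA library, and the other 6 lay below every Control. The fitted log2 fold change was -0.10 (SE 0.055, 95% interval -0.22 to 0.019, edgeR with Benjamini-Hochberg adjustment, adjusted p = 0.394). *Pfkl* was the least variable member, with a coefficient of variation over the 11 libraries of 5.44%, and *Slc2a1* the most variable with 17.6%. The median over tested genes at 10 CPM or more was 10.9%.

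*Aldoa*, the aldolase of muscle and red cells that splits the sugar (chromosome 7, 126795234 to 126800751, minus strand), was at 669, 593, 687 and 606 CPM in the Control libraries. It was between 578 and 774 CPM with a median of 597 in the BMAd-DTA libraries, and the groups overlapped throughout. The fitted log2 fold change was 0.0093 (SE 0.092, 95% interval -0.19 to 0.21, edgeR with Benjamini-Hochberg adjustment, adjusted p = 0.975), and its sign turned under other settings. *Tpi1*, which interconverts the triose phosphates (chromosome 6, 124810586 to 124814296), was at 180, 170, 165 and 168 CPM in the Control libraries and between 153 and 203 CPM with a median of 168 in the BMAd-DTA libraries. In the per-library counts its log2 fold change was 0.0053 (SE 0.072, 95% interval -0.15 to 0.16, edgeR with Benjamini-Hochberg adjustment over 16668 genes, adjusted p = 0.981).

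*Pgk1*, the first enzyme of the pathway to make ATP (chromosome X, 106187100 to 106203699, plus strand), was at 98.5, 105, 90.1 and 118 CPM in the Control libraries. It was between 93.5 and 111 CPM with a median of 102 in the BMAd-DTA libraries, all inside the Control range. The fitted log2 fold change was -0.014 (SE 0.074, 95% interval -0.17 to 0.15, edgeR with Benjamini-Hochberg adjustment, adjusted p = 0.953).

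*Pkm*, the muscle-type pyruvate kinase, which makes pyruvate and ATP (chromosome 9, 59656368 to 59679375, plus strand), was at 562, 597, 606 and 711 CPM in the Control libraries. In the BMAd-DTA libraries it was between 519 and 668 CPM with a median of 600, and the groups overlapped. Between the groups the log2 fold change was -0.033 (SE 0.083, 95% interval -0.21 to 0.15, edgeR with Benjamini-Hochberg adjustment, adjusted p = 0.886). Gene counts do not separate the splice forms of this gene.

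*Ldha*, which reduces pyruvate to lactate (chromosome 7, 46841475 to 46855627, plus strand), was at 442, 376, 339 and 433 CPM in the Control libraries. It was between 329 and 408 CPM with a median of 357 in the BMAd-DTA libraries, and the groups overlapped. Between the groups the log2 fold change was -0.12 (SE 0.085, 95% interval -0.31 to 0.063, edgeR with Benjamini-Hochberg adjustment, adjusted p = 0.512). Its pseudogenes *Ldha-ps* and *Ldha-ps2* had at most 6 counts in a library.

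For 8 of the 9 members tested in the merged table, the 95% interval of the log2 fold change held 0. Leaving out *Hk1* and *Slc2a1*, no interval of these 9 members reached beyond 0.31 on the log2 scale in either direction. These intervals give the sizes of difference that the data allow, and a missed threshold does not show equal levels.

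**Figure D3:**
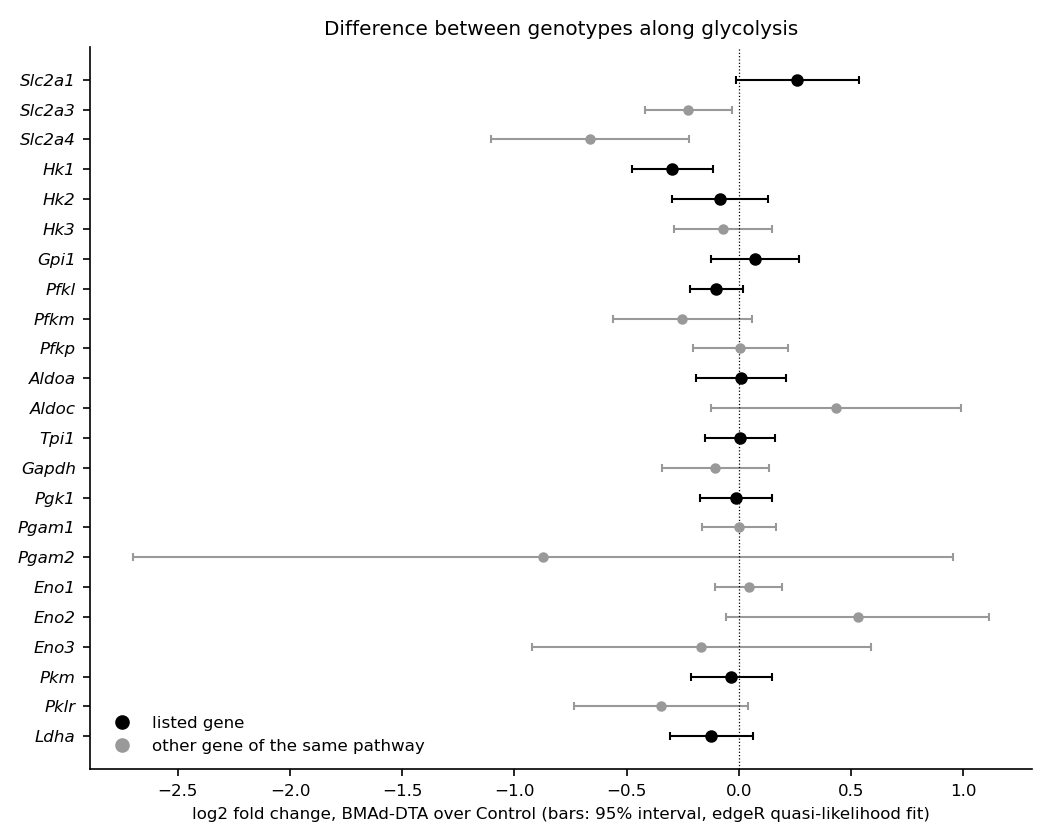
Log2 fold change, BMAd-DTA over Control, of the listed genes (black) and of other genes of the same steps (grey), in the order of the pathway, with bars for the 95% interval of edgeR's fit. The intervals of *Hk1*, *Slc2a3* and *Slc2a4* lie below 0, and that of *Slc2a1* reaches from -0.014 to 0.53.

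Most steps can be run by several isoenzymes, and these were compared as the share of each gene in the summed CPM per kb of its step. *Slc2a1* made up 15.7% to 18.0% of the signal of *Slc2a1*, *Slc2a3* and *Slc2a4* in Control libraries and 19.5% to 29.9% in BMAd-DTA libraries. The means were 16.7% ± 1.11 (SD, n = 4) and 23.1% ± 3.97 (SD, n = 7), and the groups did not overlap, which is given as a description without a test. This was the only one of the computed shares without overlap, and no such rate over all genes was computed. The CPM of *Slc2a1* itself overlapped. Its share also depends on *Slc2a3* and *Slc2a4*, whose log2 fold changes were -0.22 and -0.67. With the principal transcript lengths the means were 11.2% and 15.7%, and the groups again did not overlap. *Slc2a3*, the high-affinity carrier of neurons and white blood cells, held the largest part, with means of 61.3% and 60.7%.

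Neither of the other 2 carriers passed the test. *Slc2a3* was at 207 ± 23.9 CPM (SD, n = 4) in Control and 177 ± 17.9 CPM (SD, n = 7) in BMAd-DTA mice (log2 fold change -0.22, SE 0.091, edgeR with Benjamini-Hochberg adjustment, adjusted p = 0.233). *Slc2a4* was at 35.8 ± 10.96 CPM and 22.6 ± 5.28 CPM (log2 fold change -0.67, SE 0.20, adjusted p = 0.131 in edgeR with Benjamini-Hochberg adjustment and 0.0283 in DESeq2). For *Slc2a4*, 3 of 7 BMAd-DTA libraries lay below every Control. Its log2 fold change was -0.50 without Control 1 and -0.85 without Control 4. It was -0.56 with a score of the skeletal muscle markers in the model and -0.33 with the erythroid score. No score of adipocyte markers was fitted for this or any other gene, so the part of fat cells was not tested.

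Within the hexokinase step, *Hk3*, the form of granulocytes, held 56.5% ± 4.24 (SD, n = 4) in Control and 59.3% ± 3.24 (SD, n = 7) in BMAd-DTA libraries. *Hk1* held 35.8% and 32.7%, and *Hk2* 7.70% and 8.03%. The order of *Hk1* and *Hk3* rests on the length, since *Hk1* held 52.0% and 48.5% with the principal transcript lengths. Shares of the 3 hexokinases overlapped between the groups on both scales.

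Within phosphofructokinase, *Pfkl* held 35.1% in Control and 36.4% in BMAd-DTA libraries, beside 47.5% and 44.3% for the muscle form *Pfkm* and 17.4% and 19.3% for the platelet form *Pfkp*. Here too the order rests on the length, since with the principal transcript lengths *Pfkl* held 36.1% and 36.4%, *Pfkm* 31.8% and 28.8%, and *Pfkp* 32.1% and 34.7%. *Aldoa* made up 99.6% and 99.4% of the sum of *Aldoa* and *Aldoc*. *Pgam1*, the common phosphoglycerate mutase, held 82.6% ± 14.3 (SD, n = 4) and 89.6% ± 10.05 (SD, n = 7) of its step, and the rest was the muscle form *Pgam2*, whose level differed most between libraries. *Eno1* held 83.3% and 84.8% of the enolase step. All of these shares overlapped between the groups.

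**Figure D4:**
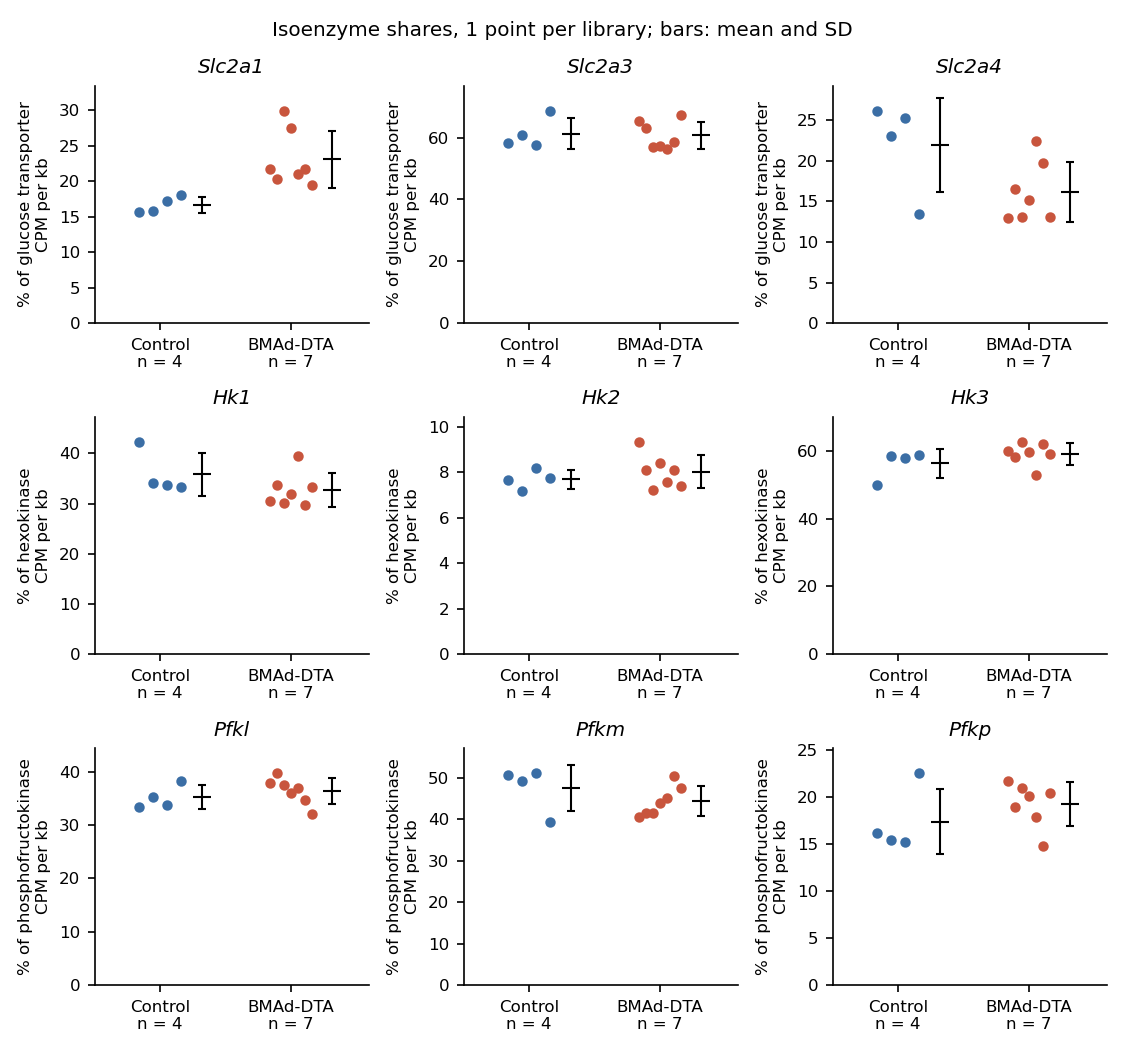
Share of each gene in the summed CPM per kb of its step, in percent, for 3 glucose carriers, 3 hexokinases and 3 phosphofructokinases, 1 point per library, with bars for the mean and SD (Control n = 4, BMAd-DTA n = 7). The *Slc2a1* share is 15.7% to 18.0% in Control and 19.5% to 29.9% in BMAd-DTA libraries, and the other shares overlap.

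The rest of glycolysis held 12 tested genes, of which 4 were higher and 8 lower, with a median of -0.089 on the log2 scale. None passed the test in edgeR or DESeq2, and 0 had an unadjusted p under 0.05. *Gapdh*, which makes NADH in the middle of the pathway and stood highest per length at 258 CPM per kb, was at 1115 ± 94.5 CPM (SD, n = 4) in Control and 1036 ± 156 CPM (SD, n = 7) in BMAd-DTA mice, a log2 fold change of -0.11. The red cell and liver pyruvate kinase *Pklr* had a log2 fold change of -0.35 (SE 0.18, edgeR with Benjamini-Hochberg adjustment, adjusted p = 0.357), which was -0.18 without Control 1. The lowest value was that of *Pgam2* at -0.87 and the highest that of the neuronal enolase *Eno2* at 0.53. That of *Pgam2* rests on single libraries, being -0.0077 without Control 3 and -1.57 without BMAd-DTA 6. The muscle enolase *Eno3* was at -0.17, and like *Pgam2* it was highest in Control 3 and BMAd-DTA 6, the libraries richest in muscle markers.

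Of 94 other listed genes of glucose metabolism and the hypoxia response, 89 were tested, and 0 passed the test in edgeR. At an unadjusted p under 0.05, 15 (16.9%) passed, 6 higher and 9 lower, near the 16.4% of all tested genes. The groups did not overlap for 2 (2.25%), against 2.81% of all tested genes. DESeq2 called 2 higher (*P4ha2* and *Ndrg1*, both of the hypoxia list) and 4 lower (*Slc2a4*, *Pfkfb2*, *Mlxipl* and *Slc16a1*). Of all genes tested in edgeR, DESeq2 called 5.11%, 2.61% higher and 2.5% lower. The median of the 89 genes was -0.032 on the log2 scale.

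Among the regulators of glycolysis, 9 of 15 were higher and 6 lower (median log2 fold change 0.051). The genes named next were picked after their values were seen. *Pfkfb2* and *Pfkfb3*, which set the level of the sugar phosphate that activates phosphofructokinase, were lower in every BMAd-DTA than in every Control library. *Pfkfb2* had a log2 fold change of -0.43 (SE 0.11, edgeR with Benjamini-Hochberg adjustment, adjusted p = 0.0979; 0.0255 in DESeq2) and *Pfkfb3* of -0.15 (SE 0.053, adjusted p = 0.183; 0.120 in DESeq2).

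*Mlxipl*, a glucose-responsive transcription factor of fat and liver, had the lowest value of the regulators (log2 fold change -1.23, SE 0.39, edgeR with Benjamini-Hochberg adjustment, adjusted p = 0.137; 0.0279 in DESeq2) and *Arrdc4* the highest at 0.27. *Mlxipl* was at 7.05 ± 3.47 CPM (SD, n = 4) in Control and 2.99 ± 1.37 CPM (SD, n = 7) in BMAd-DTA libraries, with 3 of 7 BMAd-DTA libraries below every Control. The log2 fold change of *Mlxipl* was -0.70 with the erythroid score in the model, which was added after seeing the data. Over the alternatives other than 1 mouse left out, it ran from -1.24 to -0.70. Most erythroid markers were themselves lower in BMAd-DTA mice. Values with this score, here and for other genes, may therefore lose part of the genotype difference. The part of red cells in *Mlxipl* was not tested.

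Of the 19 genes that carry pyruvate and lactate onward, 7 were higher and 12 lower (median -0.038), from *Pcx*, pyruvate carboxylase, at -0.49 (-0.24 with the erythroid score) to *Pdk4*, a kinase that restrains pyruvate oxidation, at 0.40. The lactate carrier *Slc16a1*, picked after its value was seen, was at 159 ± 35.4 CPM (SD, n = 4) in Control and 115 ± 20.3 CPM (SD, n = 7) in BMAd-DTA mice (log2 fold change -0.47, SE 0.14, edgeR with Benjamini-Hochberg adjustment, adjusted p = 0.131; 0.0343 in DESeq2), with 6 of 7 BMAd-DTA libraries below every Control and a value of -0.28 with the erythroid score. In the pentose phosphate pathway, 1 of 8 genes was higher and 7 lower (median -0.045), from *G6pdx* at -0.15 to *Pgls* at 0.15. In glycogen metabolism, 4 of 12 were higher and 8 lower (median -0.036), from the muscle kinase subunit *Phkg1* at -0.83 (-0.22 without Control 3, rich in muscle markers) to the glycogen synthase *Gys1* at 0.074. Of 4 tested genes of gluconeogenesis, 1 was higher and 3 lower (median -0.11), from *Pck1*, which fat also uses to make glycerol, at -0.98 to *G6pc3* at 0.19. Of 7 other glucose transporters, 4 were higher and 3 lower (median 0.042), with *Slc2a10* highest at 0.37.

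Among genes known to respond to hypoxia, 9 of 14 were higher and 5 lower (median log2 fold change 0.063). At an unadjusted p under 0.05 in edgeR, 4 were higher and 1 lower, where 7.89% and 8.53% of all tested genes were. DESeq2 called 2 of the 14 higher and 0 lower, against 2.61% and 2.5% of the genes tested in edgeR. *P4ha2*, a prolyl hydroxylase of collagen, had the highest value, at 9.22 ± 1.66 CPM (SD, n = 4) in Control and 13.9 ± 2.07 CPM (SD, n = 7) in BMAd-DTA mice (log2 fold change 0.59, SE 0.14, edgeR with Benjamini-Hochberg adjustment, adjusted p = 0.0798; 0.00579 in DESeq2). Its adjusted p was 0.039 without Control 3, the Control with the highest value. *Ndrg1*, picked after its value was seen, was at 0.22 (SE 0.065, adjusted p = 0.120 in edgeR with Benjamini-Hochberg adjustment; 0.0403 in DESeq2), and *Mxi1* was lowest at -0.22. *P4ha2* acts in cells that make collagen. All 12 tested markers of osteoblasts and osteocytes had fold changes above 0, their median being 1.06 on the log2 scale. Each of the 12 had an unadjusted p under 0.05 in edgeR, with 1 called in edgeR and 9 in DESeq2. The part of these cells in *P4ha2* was not tested.

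**Figure D5:**
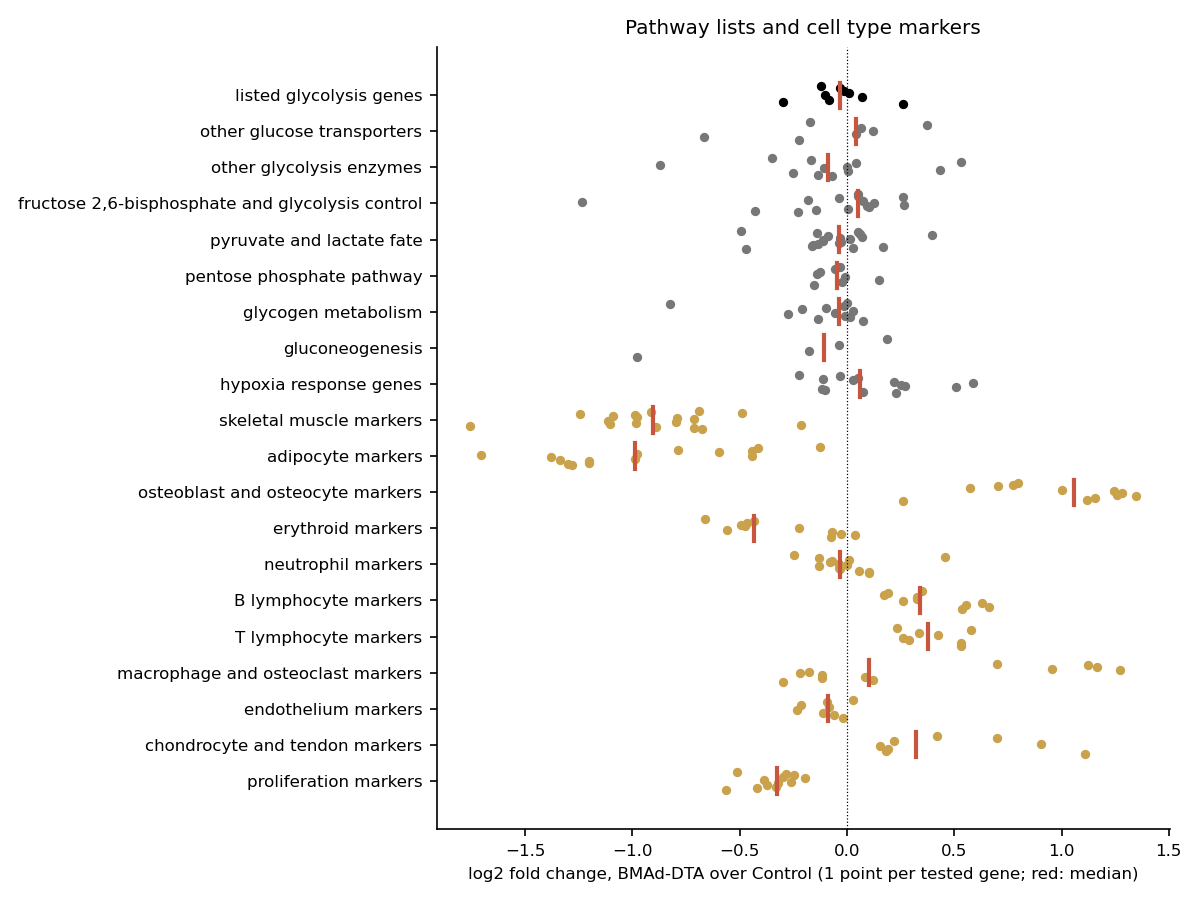
Log2 fold change, BMAd-DTA over Control, 1 point per tested gene, for the listed glycolysis genes (black), other lists of glucose metabolism and the hypoxia response (grey) and cell type markers (gold), with the median as a red line. The medians of the lists of glucose metabolism and the hypoxia response lie between -0.11 and 0.063. Those of adipocyte markers and of osteoblast and osteocyte markers lie at -0.99 and 1.06.

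Several of the marker lists differed more than those of glucose metabolism, while others did not. The medians were -0.99 for adipocyte, -0.90 for skeletal muscle, -0.33 for proliferation, -0.088 for endothelium, -0.033 for neutrophil, 0.10 for macrophage and osteoclast, 0.32 for chondrocyte and tendon, 0.34 for B lymphocyte and 0.38 for T lymphocyte markers. The medians of endothelium and neutrophil markers lay within the range of the lists of glucose metabolism and the hypoxia response, -0.11 to 0.063. Of the 18 tested skeletal muscle markers, all lower, 0 had an unadjusted p under 0.05 in edgeR, and their sums overlapped. All 12 proliferation markers were lower, each at an unadjusted p under 0.05, 0 passed the test in edgeR and 10 did in DESeq2. Of all tested genes, 8.53% were lower at an unadjusted p under 0.05 in edgeR, and DESeq2 called 2.5% lower.

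For each member, the gene whose profile over the 11 libraries was most like it was found as the smallest root mean square difference in centred log2 CPM among 10358 genes at 10 CPM or more. *Hk1* was nearest to *Mier3*, at 0.031 against an SD of *Hk1* of 0.19 on the log2 scale, and *Mier3* itself had a log2 fold change of -0.33 (edgeR with Benjamini-Hochberg adjustment, adjusted p = 0.0982). The search used the same libraries with the difference between the groups left in, so a similar fold change follows from the choice. *Pfkl* was nearest to *Srsf4* at 0.033, *Pgk1* to *Cdc42* at 0.049 and *Gpi1* to *Riox1* at 0.054. The gene nearest to *Slc2a1* was *Grb10* at 0.11, against an SD of *Slc2a1* of 0.24.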

How the data were processed

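Strand-specific paired-end mRNA sequencing covered the whole distal tibia of 4 Control and 7 BMAd-DTA mice, with 16969529 to 18637663 counts per library. Per the methods and the submitters' processing notes, reads were checked with FastQC 0.11.9 and aligned to mm10 with STAR, and the authors deposited raw counts of read pairs per gene, per library and in a merged table, without normalization. The annotation release is not given in the sources used here. Multimapping pairs (6.68% to 9.07% of each library) are not in the counts. Groups were taken from the source names, which match the genotype label of every mouse. The labels name no batch. Replicate numbers follow accession order.

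The tests used edgeR 4.0.16 under R 4.3.3, with filterByExpr, TMM scaling and the two-sided quasi-likelihood test. Benjamini-Hochberg adjustment ran across 16496 genes, and the threshold was an adjusted p of 0.05. SE was the absolute log2 fold change over the root of F. CPM used TMM-scaled library sizes. CPM per kb used merged exon lengths of GENCODE M21 on GRCm38, the assembly of mm10. The alternatives were DESeq2 1.42.0, limma-voom (limma 3.58.1), other scalings and filters, per-library counts, marker scores as covariates, and each mouse left out. Steps were tested on simulated data. The lists covered glucose metabolism, hypoxia and markers of 11 cell types or states. Named were the members, isoenzymes of their steps, and the highest and lowest gene of each list of glucose metabolism or hypoxia. *Pfkfb2*, *Pfkfb3*, *Slc16a1* and *Ndrg1* were added after their values were seen. The members and lists were chosen with earlier results of these data known. *Ldhb* and *Vegfa* are not analysed here, and 1 other isoenzyme gene is not reported. The study describes the controls as littermates, and the labels do not tie mice to litters. The p-values weigh the difference between the groups against the spread between these mice, estimated with information shared across genes.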

Additional observations from a re-analysis of the deposited data

Results flagged for a closer look

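In 80 groups of values (each of 40 named genes in each genotype), 7 had a library far from the others of its group by Dixon's criterion, and chance alone gives about 5% of groups. *Pgam2* was at 9.57 CPM in BMAd-DTA 6, where the other BMAd-DTA libraries were at 0.344 to 4.32 CPM. *Eno3* was at 40.8 CPM in the same library, against 13.5 to 23.4 CPM in the others. *Adpgk*, an ADP-dependent glucokinase, was at 497 CPM in Control 4, below 540 to 548 CPM in the other Control libraries. *Pcx* was at 33.4 CPM in Control 4, below 51.5 to 54.7 CPM in the others. *Slc2a10* was at 2.98 CPM in Control 1, below 4.49 to 4.65 CPM in the others. *P4ha2* was at 11.7 CPM in Control 3, above 8.19 to 8.60 CPM in the others. *Slc16a1* was at 158 CPM in BMAd-DTA 5, above 94.96 to 116 CPM in the others. None of the 9 members in the merged table had such a library.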

How the results depend on the processing

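Of 960 values of 40 genes under 24 alternatives, 918 kept their direction and their side of the threshold, 34 changed sign and 8 newly passed it. *Slc2a1*, *Hk1*, *Hk2*, *Gpi1*, *Pfkl* and *Ldha* kept their sign in 24 of 24. DESeq2 called 1 member, 6 other genes of glucose metabolism and the hypoxia response and 845 genes in all, against 0, 0 and 13 in edgeR. The count over all genes was 20 with limma-voom, 20 with RLE size factors, 3 with the muscle score, 1 without Control 3 and BMAd-DTA 6 and 0 with the erythroid score (the last 2 added after seeing the data). With 1 mouse left out it was 0 to 292: 0 without Control 1, Control 2, BMAd-DTA 1 or BMAd-DTA 6, and 292 without Control 3. Over the same fits, 0 to 0 members and 0 to 1 genes of these other lists were called (*P4ha2*, of the hypoxia list, without Control 3). The adjusted p of *Hk1* ran from 0.0293 to 0.367 over all alternatives.

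The sign turned for *Aldoa* with library totals (-0.0037) and without Control 3 and BMAd-DTA 6 (-0.00012), for *Pgam1* with upper quartile scaling (0.011), read-strand counts (0.00073), unstranded counts (0.0027) and without Control 3 and BMAd-DTA 6 (0.010), for *Pfkp* with library totals (-0.0060), the muscle score (-0.0060) and the erythroid score (-0.068), for *Pgam2* with the muscle score (0.022) and the erythroid score (0.16), and for *Eno3* with the muscle score (0.15), without Control 3 and BMAd-DTA 6 (0.085) and with the erythroid score (0.024). With each mouse left out in turn, values ran from -0.040 to 0.049 for *Aldoa*, -0.069 to 0.059 for *Pgk1*, -0.077 to 0.039 for *Pkm*, -0.044 to 0.052 for *Pgam1*, -0.053 to 0.087 for *Pfkp*, -0.42 to 0.34 for *Eno3*, -1.57 to -0.0077 for *Pgam2*, -1.14 to -0.22 for *Phkg1*, -0.45 to -0.18 for *Pklr*, 0.26 to 0.58 for *Pdk4*, 0.24 to 0.48 for *Slc2a10*, 0.12 to 0.26 for *G6pc3*, 0.099 to 0.22 for *Pgls* and -0.0017 to 0.13 for *Gys1*. The cause was not tested.

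With principal transcript lengths, the Control and BMAd-DTA shares were 11.2% and 15.7% for *Slc2a1*, 69.9% and 70.2% for *Slc2a3*, 52.0% and 48.5% for *Hk1*, 99.7% and 99.7% for *Aldoa*, and 91.9% and 92.7% for *Eno1*. With unstranded counts, the BMAd-DTA share of *Pgam1* was 78.4%. Other scalings moved the median of all genes by at most 0.013 on the log2 scale. No paired analysis was possible because the labels give no replicate numbers shared between the genotypes. With 4 Control mice, small differences could not be resolved, as the intervals above show.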
